A study of Mus musculus with 2 samples.

Results

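The cytosolic ribosomal protein genes of the adult mouse cerebellum were measured by RNA sequencing in 2 libraries. They were chosen by name: protein-coding genes whose GENCODE symbol is Rpl or Rps with a number (and an optional a, x or l), together with Rplp0, Rplp1, Rplp2 and Rpsa, without the Rps6k kinases. The rule found 84 genes among 43346 annotated genes, of which 21474 are protein-coding. Of these, 77 are called canonical here and 7 are called paralogs because an l follows the number in their symbol: Rpl3l, Rpl7l1, Rpl10l, Rpl22l1, Rpl36al, Rpl39l and Rps27l. The canonical genes encode 31 proteins of the small (40S) subunit and 46 of the large (60S) subunit. A further 5 symbols fit the pattern but are annotated as pseudogenes and were left out: Rps3a2, Rps3a3, Rps4l, Rps12l1 and Rpl6l.

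Both libraries belong to a single group, cerebellum of C57BL/6J mice aged 8 weeks, an inbred laboratory strain without transgene or treatment, so no condition is compared and no p-value is given. The submitters number them biological replicates 1 and 2, label each as tissue pooled from males and females of mixed-sex litters, and give them one donor record. The labels do not state which animals each came from. Both were strand-specific paired-end libraries of poly-A+ RNA over 200 nucleotides, from which ribosomal RNA had also been depleted.

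The 2 libraries differed in ways that the labels do not give. Xist, transcribed from the inactive X chromosome of females, stood at 93.5 TPM in replicate 1 and 0.03 TPM in replicate 2. Conversely, replicate 1 gave 0 counts and replicate 2 gave 1328 to 3776 for each of 4 Y-linked genes (Uty, Kdm5d, Ddx3y, Eif2s3y), which goes against the pooled-sex label of each library. By these genes replicate 1 held female tissue and replicate 2 male tissue, so the spread between them is not technical alone, and sex and replicate cannot be told apart. The 5 granule neuron markers, 4 Purkinje cell markers and 4 oligodendrocyte markers were all at 100 TPM or more in both libraries, and none of 4 forebrain markers reached 4 TPM. TPM is a relative abundance of transcripts corrected for their length, and all levels below are in this unit unless another is named.

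A ribosome carries one copy of nearly every ribosomal protein, so their genes are known for similar and high expression in all tissues. Their mRNAs typically begin with a cytosine followed by an unbroken run of pyrimidines, the 5′ terminal oligopyrimidine (TOP) motif, through which Larp1 and the mTOR pathway adjust their translation. Ribosomal protein mRNAs are also the most frequent parents of processed pseudogenes in mammalian genomes, intronless copies made by reverse transcription, and reads can match parent and copy alike.

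The sequence around the annotated start is shown first because it is the feature that these genes are known to share. RefSeq promoter windows on GRCm38.p6 (250 bases before to 50 after the start) were found for 64 of the 84 genes, with 76 windows in all. Among those not matched were Rpl17, Rpl21, Rpl23a, Rpl29, Rpl3, Rpl30, Rpl32, Rpl36, Rpl7, Rpl8, Rplp1, Rps14, Rps20, Rps27a and Rps29. A C at the annotated start with at least 4 further C or T after it was present in 13 of the 76 windows (17.1%), against 3.03% of 1255 windows of other protein-coding genes of at least 100 TPM and 2.51% of all 32851 windows. The lines give 10 bases before and 20 from the start of 8 of these 13 genes, chosen to show runs of 5 to 13 bases; capitals mark the C at the start and its pyrimidine run.
Rps21 (chr2:180257369-180257398, + strand): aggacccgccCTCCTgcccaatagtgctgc
Rpl38 (chr11:114668570-114668599, + strand): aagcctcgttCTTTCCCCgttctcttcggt
Rps6 (chr4:86857348-86857377, - strand): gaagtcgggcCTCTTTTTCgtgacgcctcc
Rplp2 (chr7:141447641-141447670, + strand): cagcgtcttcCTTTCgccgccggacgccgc
Rps10 (chr17:27635225-27635254, - strand): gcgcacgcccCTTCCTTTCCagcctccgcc
Rpl15 (chr14:18270967-18270996, - strand): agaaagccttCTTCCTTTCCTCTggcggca
Rpl35 (chr2:39005112-39005141, - strand): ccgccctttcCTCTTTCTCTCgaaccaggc
Rps27 (chr3:90213629-90213658, - strand): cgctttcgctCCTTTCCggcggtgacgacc

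For contrast, the next lines give the same 30 bases for 4 genes whose annotated start has no such run: the highest of them, a stalk gene, and the canonical genes with the lowest and the third lowest level. Rpl22 is shown by 1 of its 2 windows.
Rpl26 (chr11:68901556-68901585, + strand): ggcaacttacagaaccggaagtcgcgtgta
Rplp0 (chr5:115559457-115559486, + strand): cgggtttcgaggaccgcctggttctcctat
Rpl5 (chr5:107900518-107900547, + strand): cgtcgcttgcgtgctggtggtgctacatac
Rpl22 (chr4:152325716-152325745, + strand): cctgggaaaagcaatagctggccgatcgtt

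The other genes with a run at the annotated start were Rpl14, Rpl28, Rpl35a, Rps15a and Rps18. When the C could lie up to 5 bases to either side of the annotated start, 40.8% of the 76 windows held such a run, against 18.6% for the other genes of at least 100 TPM and 18.3% for all windows. The annotated start is a reference position and was not measured in these libraries. The 13 genes with a run had a median of 294 TPM and the genes with a window but no run had a median of 299.9 TPM, and the groups overlapped.

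Short motifs were also counted on both strands of the 300-base windows, and none of the 4 contains another. CCGGAAG, the core that ETS-family factors such as GABP recognise, was in 35.5% of the windows of ribosomal protein genes, against 15.5% for other genes of at least 100 TPM and 8.86% of all windows. AAGATGG, the core of the YY1 motif, was in 15.8%, against 7.57% and 6.34%. GGGCGG, which Sp1 recognises, was in 60.5%, close to the 61.1% of other genes of at least 100 TPM and above the 35.7% of all windows. TATAAA was in 9.21%, against 7.57% and 13.6%. Some genes carry several windows, so the shares were also taken per gene, over 64 ribosomal protein genes and 893 other genes of at least 100 TPM. The pyrimidine run was in 20.3% of the ribosomal protein genes against 4.26% of the others, CCGGAAG in 40.6% against 19.5%, AAGATGG in 15.6% against 9.41%, GGGCGG in 62.5% against 70.1% and TATAAA in 10.9% against 9.97%. The pyrimidine run and CCGGAAG were thus more than 2 times as frequent as in the other genes by either count, and AAGATGG by windows but not by genes. A match describes letters in a window and is not a measured binding site.

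Together the 84 genes held 819869 counts (1.03%, 95% Wilson interval 1.026 to 1.030) of 79771873 gene counts in replicate 1, and 888935 (1.11%, interval 1.105 to 1.110) of 80281011 in replicate 2. These intervals cover counting error only. In length-corrected terms the share was larger, 3.17% of all TPM in replicate 1 and 3.30% in replicate 2. All TPM includes spike-ins, and of the TPM of annotated genes alone the shares were 3.36% and 3.49%. The transcripts were short, with a median length of 730.05 nucleotides for canonical genes and 1788 for other protein-coding genes of at least 100 TPM. Of the 77 canonical genes, 75 reached 100 TPM in both libraries, whereas 5.71% of all protein-coding genes did.

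The canonical genes were not level with each other. Their mean TPM ran from 50.9 for Rpl5 to 1670.3 for Rplp1, a 32.8-fold range that was 14.8-fold when reads assigned to processed copies were added to their parents, with a median of 335 and a coefficient of variation of 66.3%. Most lay close together: 58 of 77 were within 2-fold of the median, 11 were above that range and 8 below it. The medians of the subunits were close, 335 TPM over the 31 small subunit genes and 327 TPM over the 46 large subunit genes. At 500 TPM or more in both libraries were 18 genes, 7 of the small and 11 of the large subunit. The 84 genes lie on 19 chromosomes, 14 of them on chromosome 7 and 4 on the X, so the set is dispersed. On mm10, Rplp1 spans chr9:61913284-61914542 (- strand), Rps21 chr2:180257377-180258445 (+ strand), Rps24 chr14:24487125-24496959 (+ strand) and Rpl5 chr5:107900502-107909005 (+ strand).

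**Figure D1:**
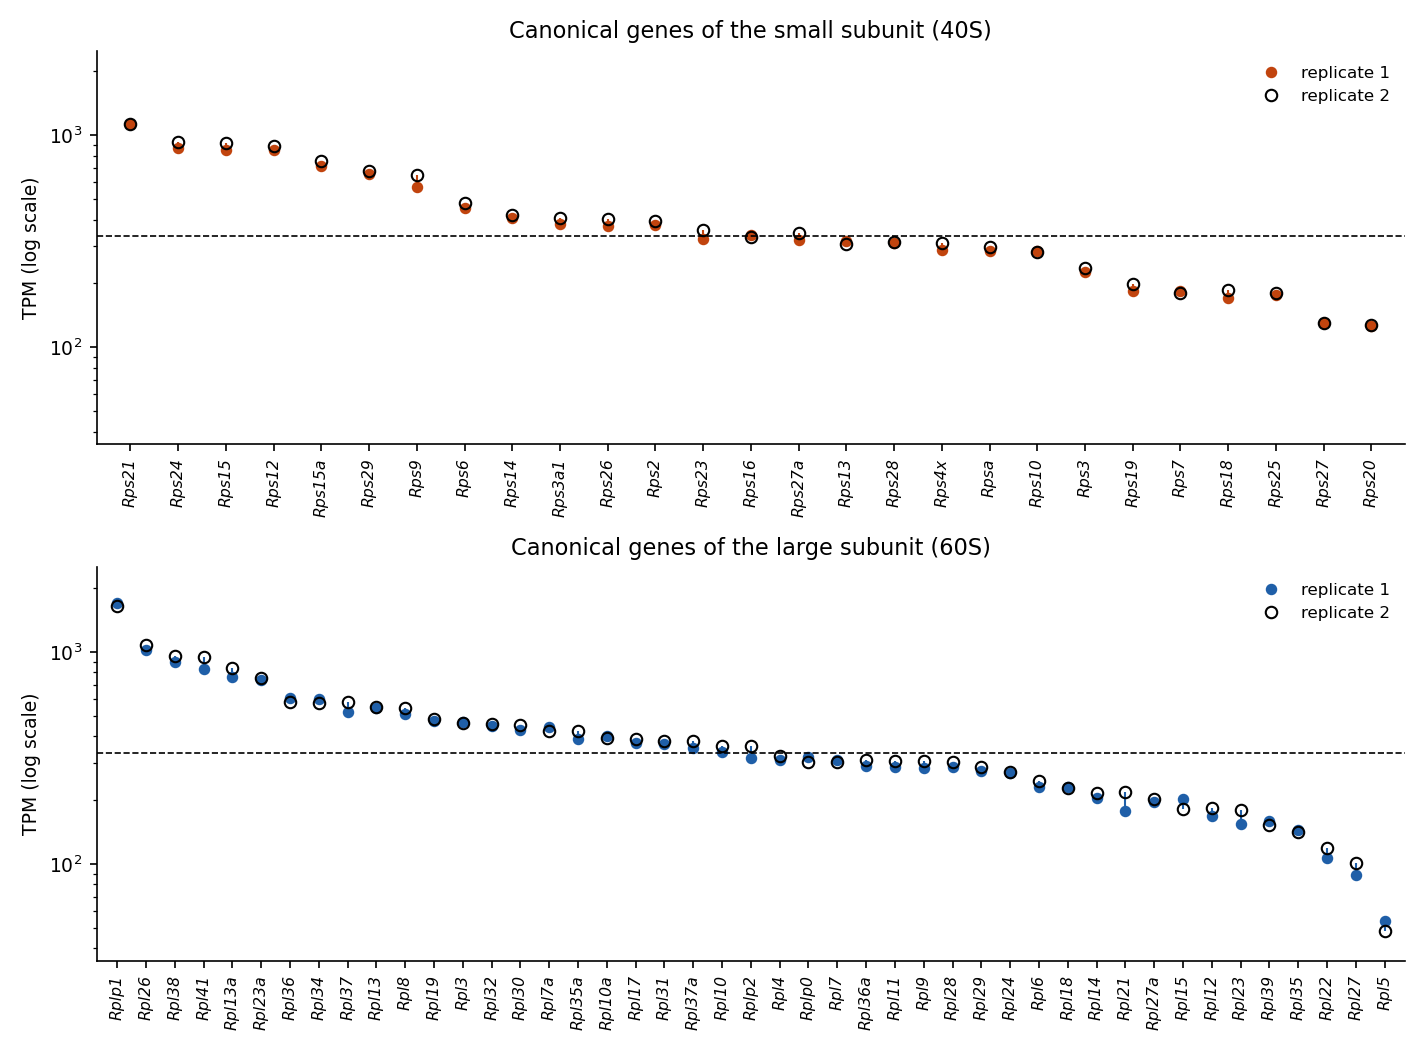
TPM (log axis) of 72 of the 77 canonical genes in replicate 1 (filled) and replicate 2 (open), with small subunit genes above, large subunit genes below and a dashed line at the median of 335 TPM. Rplp1 stands above all others and Rpl5 below all others in both replicates, and the distance between replicates is small beside the distance between genes.

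Among small subunit genes, Rps21 was the highest, with 1134 TPM in replicate 1 and 1126 TPM in replicate 2. Rps24, one of the genes mutated in Diamond-Blackfan anaemia in humans, had 866 and 930.3 TPM. Rps21 was above Rps24 in both libraries by more than the replicates differed. Rps20 was the lowest canonical gene of this subunit, with 126 and 127 TPM. Rps27 stood just above it, with 129.7 and 130.3 TPM. The level of Rps27 rests on 413 and 412 counts over a single 255-nucleotide transcript whose effective length was 60.2 nucleotides in replicate 1, the shortest of the 84 genes. Divided by 2, the width of the authors' credibility interval came to 9.76% of its TPM, against 1.19% for Rplp1 in replicate 1. Rps6, the substrate of S6 kinase in the mTOR pathway, had 453 and 478 TPM, and Rps19, the gene most often mutated in Diamond-Blackfan anaemia, had 184 and 199 TPM, so these well-studied genes lay on either side of the median. Rpsa, which encodes the laminin receptor precursor, a protein of the small subunit, had 286 and 295 TPM, below the median.

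Among large subunit genes, Rplp1 and Rplp2 encode the acidic proteins that form dimers on the lateral stalk, where elongation factors dock, and Rplp0 encodes their anchor. Rplp1 had 1695 and 1646 TPM, the highest of all. Rplp2 had 315 and 362 TPM, and Rplp0 had 318 and 303 TPM, so that the partners of the same stalk differed several-fold in mRNA level in both libraries while Rplp2 and Rplp0 overlapped.

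Next in order came Rpl26, a protein near the exit of the peptide tunnel, with 1019 and 1082 TPM. Rpl38, which in mouse embryos is known for its effect on translation of Hox mRNAs, had 893 and 957 TPM. Rpl41, which encodes the shortest of these proteins, had 833 and 943 TPM. Rpl26 lay above both in each library. Within each library Rpl38 was above Rpl41 and Rps24, although the ranges of the 3 genes over both libraries overlapped. Rps24 was above Rpl41 in replicate 1 and below it in replicate 2.

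The lowest large subunit gene was Rpl5, which with Rpl11 carries 5S rRNA into the ribosome. Rpl5 had 53.7 and 48.1 TPM. Its partner Rpl11 had 286 and 305 TPM. Rpl27 followed with 88.4 and 100.9 TPM, Rpl22, an RNA-binding protein of the outer surface, with 107 and 118 TPM, and Rpl35, at the tunnel exit, with 145 and 141 TPM. None of these ranges overlapped. The values of Rpl5 and Rpl27 also depend on reads that match their processed copies, described further on.

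Shorter transcripts had higher levels. The 26 canonical genes under 600 nucleotides had a median of 602 TPM and the 51 longer ones a median of 295 TPM. Over the 77 genes, length and mean TPM had a Spearman correlation of -0.524, against -0.190 over 1151 other protein-coding genes of at least 100 TPM. All values come from the same 2 libraries and the same length correction, and the part of that correction in the relation was not tested. Restricting to the 64 canonical genes with a mean effective length of at least 300 lowered the coefficient of variation to 54.0%. This cutoff left out Rplp1, the highest gene, whose effective lengths were 298.7 and 294.3.

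The 7 paralogs ranged from genes close to their partner in TPM to genes with few or no counts. Rpl36al, the autosomal counterpart of the X-linked Rpl36a, had 211 and 229 TPM, against 291 and 309 TPM for Rpl36a. It held 42.1% and 42.5% of the summed TPM of the pair. Rpl22l1, known in mouse to rise when Rpl22 is lost, had 93.4 and 98.9 TPM, against 107 and 118 TPM for Rpl22, and held 46.7% and 45.5% of the pair. In both pairs the canonical gene was higher in TPM in both libraries, but the paralog was within 2-fold of it. The mm9 gene table, described further on, differed for both pairs. There Rpl36al was the higher, with 15.9 and 18.8 RPKM against 1.79 and 2.20 RPKM for Rpl36a. Rpl22l1 had 0.44 and 0.575 RPKM there, against 12.9 and 14.97 RPKM for Rpl22, which is not within 2-fold. By counts Rpl22l1 had 1868 and 2033 against 4810 and 5410 for Rpl22, or 28.0% and 27.3% of the pair, which is not within 2-fold.

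Rps27l, a target of p53, had 35.2 and 35.3 TPM, against 129.7 and 130.3 TPM for Rps27, or 21.4% and 21.3% of the pair. By counts the order turned round: Rps27l had 577 and 604 counts against 413 and 412 for Rps27, so which of the pair is higher rests on the 60.2-nucleotide effective length of Rps27. Rpl7l1, linked to ribosome assembly, had 24.8 and 24.5 TPM against 311 and 304 TPM for Rpl7, or 7.39% and 7.47% of the pair.

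The other 3 were at or near 0. Rpl3l, known from heart and skeletal muscle, had 21 and 29 counts (0.44 TPM in each library), against 465 and 459.8 TPM for Rpl3. Rpl39l and Rpl10l are known from testis, where they stand in for X-linked genes that are silenced during meiosis. Rpl39l had 3 and 2 counts, against 159 and 152 TPM for Rpl39. Rpl10l had 0 counts in both libraries, which allows up to 0.0686 and 0.0651 TPM (3 counts), against 336 and 361 TPM for Rpl10. These 3, known from other tissues, were the paralogs at 0.44 TPM or less in cerebellum.

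**Figure D2:**
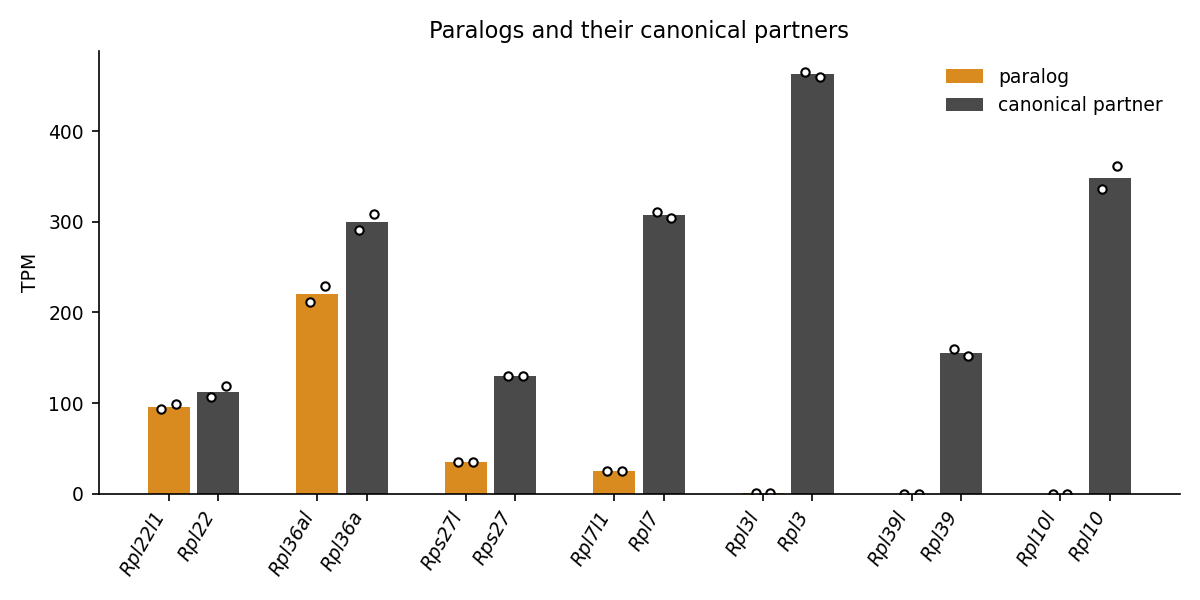
Mean TPM of each paralog (orange) and its canonical partner (grey), with the 2 replicates as points. Rpl22l1 and Rpl36al stand close to their partners at 96.1 and 219.8 TPM, Rps27l and Rpl7l1 at 35.2 and 24.6 TPM, and Rpl3l, Rpl39l and Rpl10l at or near 0.

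Most ribosomal protein genes were expressed mainly as a single transcript. Among the 60 with at least 2 annotated transcripts and at least 5 TPM, the leading transcript held a median of 89.1% of the gene's TPM. The same median was 69.1% over 916 other protein-coding genes of at least 100 TPM. A second transcript held at least 20% in both libraries in 16 of the 60 (26.7%), against 39.4% of the other genes. By share of counts the gap was smaller: the median lead was 88.7% in ribosomal protein genes against 80.1% in the other genes, and 26.7% against 30.3% had a second transcript. At a threshold of 30% of TPM, 13.3% of ribosomal protein genes had one, against 15.9% of the others. At 10% of TPM the gap was wider, with 40% against 64.1%. The leading transcript was the same in both libraries in 57 of the 60, and in 885 of the 916 other genes, a like share. Protein-coding transcripts held 93.6% and 93.2% of the TPM of the ribosomal protein genes, against 92.3% and 93.0% for the other genes of at least 100 TPM, so in this respect the groups were alike to within 2 percentage points.

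Ranked by the mean share over both libraries, the 6 largest second transcripts belonged to Rps9 (Rps9-201, 49.0% and 44.3% of the gene), Rps10 (Rps10-201, 42.5% and 44.1%), Rplp2 (Rplp2-203, 38.8% and 45.3%), Rpl21 (Rpl21-201, 44.7% and 39.0%), Rpl12 (Rpl12-203, 45.6% and 37.1%) and Rps6 (Rps6-202, 37.1% and 36.9%). In 5 of the 60 genes (8.33%) the leading transcript by mean TPM was not annotated as protein-coding, a share close to the 9.28% of the other genes of at least 100 TPM. Rps20-201, a retained-intron transcript of 582 nucleotides, held 72.5% and 71.1% of Rps20. Rpl30-205 (388 nucleotides) held 53.9% and 51.2% of Rpl30, Rps9-206 (378 nucleotides) held 46.3% and 51.6% of Rps9, Rpl12-201 held 39.7% and 45.5% of Rpl12, and a 338-nucleotide transcript that is not in GENCODE M21 held 45.4% and 46.7% of Rpl13a. In replicate 1 the coding transcripts Rps9-201 and Rpl12-203 led their genes, so that 3 genes had such a lead in replicate 1 and 5 in replicate 2. By share of counts no ribosomal protein gene was led by such a transcript, against 4.04% of the other genes. These short entries gain most from the length correction, and for Rps20 the 3706-nucleotide coding transcript Rps20-203 held 73.6% of the counts.

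Rps24 is known in mammals for the variable inclusion of very short exons near its 3′ end. Its transcript Rps24-201 took 12421 of 12488 counts in replicate 1 and 13882 of 13985 in replicate 2. In the mm9 junction table a 20-nucleotide exon at chr14:25314652-25314671 (mm9, + strand) was bounded by an annotated junction upstream and an unannotated one downstream. Reads joined to its upstream side numbered 87 and 150, and reads joined to its downstream side 96 and 133, in the replicates numbered 1 and 2 in that table. Reads that skipped it numbered 29 and 25, so inclusion had more reads than skipping in both. A further unannotated junction, which began 13 bases after the upstream exon and ended 7 bases before the downstream one, had 96 and 123 reads. Its 13 and 7 bases add up to the length of the short exon, and reads of that exon placed otherwise cannot be told apart from it.

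Processed copies were searched for by sequence. Of 5540 processed pseudogene transcripts, 1116 matched a ribosomal protein transcript over at least 100 bases at 80% identity or more, with a median identity of 93.3%. A copy was found for 82 of the 84 genes, with a median of 9 each and up to 87 for Rpl7a, a protein of the large subunit. An expected count can divide reads that fit several genes, and is whole where no read was divided. Of the 76 ribosomal protein genes at 100 TPM or more, 10 had whole counts in both libraries (13.2%), against 82.97% of 1151 other protein-coding genes at that level. They included Rpl8, Rpl22, Rpl23, Rpl32, Rpl36al, Rps9, Rps15, Rps20 and Rps21, and the values of genes without whole counts are uncertain to the extent that reads were divided. The authors' posterior SD, the spread of their count estimate, had medians of 0.053% and 0.054% of the mean over the 76 genes. Whether it covers all of that uncertainty was not tested.

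In the mm10 tables the copies together held 2591 TPM in replicate 1 and 2903 TPM in replicate 2, or 7.56% and 8.10% of the sum of genes and copies. In 3 genes the copies held more TPM than the parent. Gm15500, identical to Rpl5 over 894 bases, had 243 and 253 TPM, against 53.7 and 48.1 TPM for Rpl5. Rpl27-ps3 had 303 and 290.6 TPM, against 88.4 and 100.9 TPM for Rpl27. Gm10443 had 428 and 470.1 TPM, against 309 and 313 TPM for Rps28, a short small subunit protein. By counts this order turned round. Gm10443, of 210 nucleotides, had 428 and 431 counts, against 3066 and 3212 for Rps28, so its higher TPM rests on the length correction.

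The first 2 of these parents are the lowest canonical genes. With the copies added, Rpl5 came to 297 and 302 TPM and Rpl27 to 392.5 and 392.4 TPM, near or above the median of 335 for genes alone. The coefficient of variation over canonical genes was then 60.1%, and Rpl22 became the lowest, with 107 and 119 TPM. This sum was computed after the values were seen. Among pseudogenes named after their parent, the sums that were highest relative to the parent's own TPM were 343% and 288% for Rpl27, 58.5% and 63.2% for Rpl31, 33.7% and 47.3% for Rpl15, 27.7% and 23.7% for Rpl14, 22.1% and 28.3% for Rps6, and 15.8% and 15.5% for Rpl19.

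**Figure D3:**
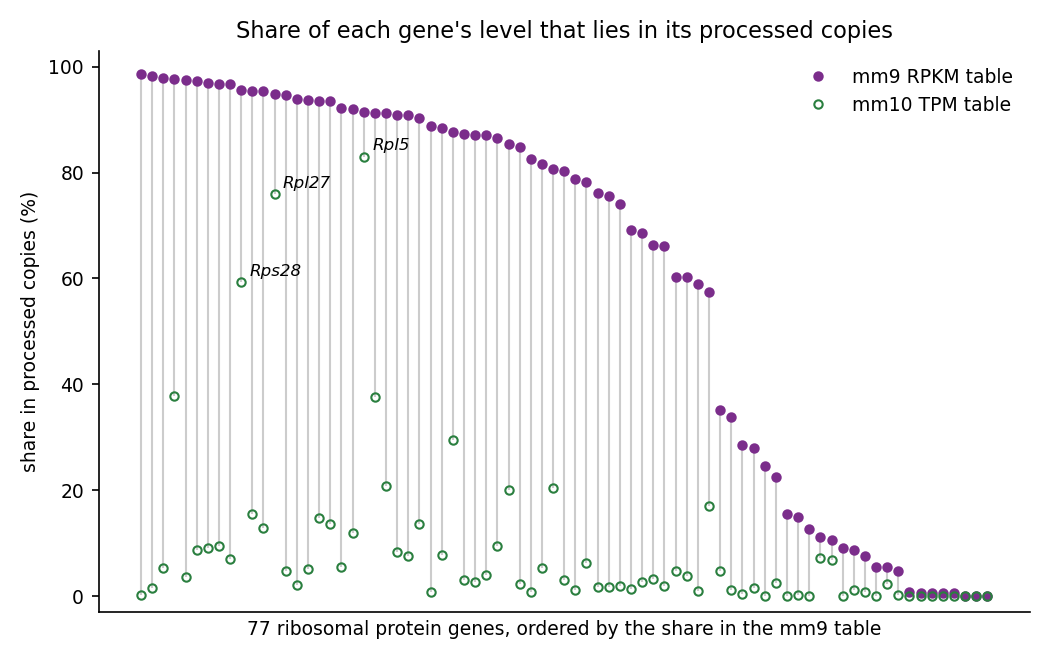
Share (%) of the summed level of gene and copies that lies in the processed copies, for 77 ribosomal protein genes of at least 10 TPM with a copy in the mm9 table, in the mm9 RPKM table (filled) and the mm10 TPM table (open), means of 2 replicates. In the mm9 table most genes lie above 50%, while in the mm10 table Rpl5, Rpl27 and Rps28 do.

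The deposited mm9 gene table, in RPKM (reads relative to gene length and library size) on Ensembl 65, gave another picture of the same genes. It held a value for 82 of them, Rpl24 and Rpl41 having none. Over these genes the copies held 73.5% of the summed RPKM in each of its replicates, against 7.37% and 7.90% of the summed TPM for the same genes and copies on mm10. The copies held over 50% in 53 of the 79 genes with a copy in the mm9 table, and in 3 genes in the mm10 table.

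Most of the parents were also low in the mm9 table. Spliced reads per intron were taken as the median over a gene's introns with at least 10% of the reads of its highest intron. Genes with at least 100 of these reads were compared by the log2 ratio of mm9 RPKM to mm10 FPKM (each plus 0.1). Its median was -4.85 over 72 ribosomal protein genes and -2.45 over 8904 other protein-coding genes. Over the 356 other genes of 400 to 1300 nucleotides and at least 100 TPM the median was -2.91. The ratio of 62 of the 72 was below -3.18, the 5th percentile of all the other genes, and that of 47 was below -4.47, the 5th percentile of the 356. Of the genes compared in this way and at 100 TPM or more, 44 of 67 ribosomal protein genes (65.7%) had under 10 RPKM. The same held for 123 of 1178 other genes (10.4%) and 74 of the 356 (20.8%).

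The genes that lost most ranks in the mm9 table were Rpl38 and Rps12. Rps12, a small subunit protein, had 851 and 891 TPM but 0.558 and 0.41 RPKM. Rpl38 had 893 and 957 TPM but 1.06 and 0.804 RPKM. The copy Rpl38-ps2, identical to Rpl38 over 213 bases, showed the reverse, with 12.8 and 12.5 TPM but 46.4 and 50.5 RPKM. Rps29, Rpl37, Rpl31 and Rpl34 followed, at 1.92, 1.92, 1.30 and 3.86 RPKM in mm9 replicate 1.

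The genes that gained most ranks included Rpl22, Rps3, Rpl36al, Rpl15, Rpl29 and Rpl4. Rps3, a small subunit protein at the mRNA entry channel, had 226 and 235 TPM and 32.8 and 30.2 RPKM. Rpl22 had 107 and 118 TPM and 12.9 and 14.97 RPKM. Rps3 had 1 matched copy, with 0 TPM, and the copies of Rpl22 held 4.68% and 4.82% of the mm9 RPKM. Other genes of at least 100 TPM with 1 matched copy included Rpl4, Rpl8 and Rps9. They stood at 28.0, 40.2 and 26.4 RPKM in mm9 replicate 1. The copy of Rps9 had 0 RPKM, and those of Rpl4 and Rpl8 have no value in the mm9 table used here. Few copies did not always go with a high RPKM. Rps20 and Rpl23, each with 3 matched copies, had 2.90 and 3.82 RPKM in mm9 replicate 1. Their copies held 1.07% and 1.03% of the RPKM there. Rpl36a, with 4 copies that held 9.32%, had 1.79 RPKM. Across genes of at least 100 TPM, the 37 with at least 10 copies had medians of 367 TPM and 5.39 RPKM, and the 37 with 1 to 9 copies had medians of 311 TPM and 7.85 RPKM.

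**Figure D4:**
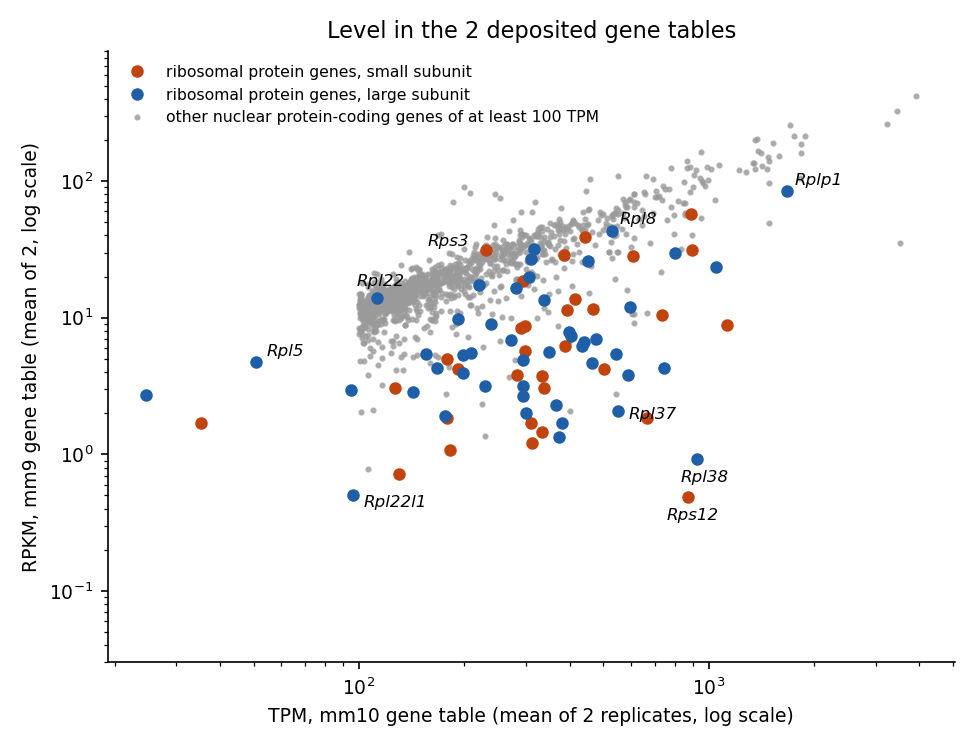
Level of ribosomal protein genes of at least 1 TPM (coloured by subunit) and of 1198 other nuclear protein-coding genes of at least 100 TPM (grey) in the mm10 table (TPM, x axis) and the mm9 table (RPKM, y axis), both log axes, means of 2 replicates. Rps12 and Rpl38 lie farthest below the grey band, and Rplp1, Rpl8, Rps3 and Rpl22 lie in or near it.

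An intronless copy gives no reads spliced at its parent's introns, so spliced reads were set beside both tables. A spliced read of the parent can still match a near-identical copy, so these reads are not independent of the copies. Among genes of at least 100 TPM, the median spliced reads per intron were 272 in the 37 with at least 10 copies. In the 37 with 1 to 9 copies they were 1131.5. The part of the copies in this difference was not tested. The median per gene was again over introns with at least 10% of the highest intron's reads, so Rps24 entered with 9772. Over 72 ribosomal protein genes, this median had a Spearman correlation of 0.290 with TPM and 0.658 with RPKM. Over 356 other genes of 400 to 1300 nucleotides and at least 100 TPM these values were 0.653 and 0.755. The junction and RPKM tables share the mm9 assembly, and the TPM table is on mm10. Spliced reads were also uneven within genes. Of 8 annotated introns of Rps24, the 4 with at least 100 reads had 186, 333, 9772 and 237, in order along the gene. Genes with 3 or more introns of at least 10 reads were compared by the median over those introns. The intron with most reads had at least 10 times this median in 8 of 67 ribosomal protein genes (11.9%), against 5.54% of 289 other genes of that length and level. Which table is nearer to the level of each gene was not tested.

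Other components of translation were set beside these genes. The 3 ribosomal components with other symbols had a median of 541 TPM. Fau, which encodes a ubiquitin-like protein fused to a small subunit protein, had 539 and 544 TPM, and Rack1, the scaffold on the 40S head, had 279 and 273 TPM. The 8 elongation factor genes had a median of 265 TPM, led by Eef1a1 at 1514 and 1546 TPM, Eef1a2, the form of neurons and muscle, at 926 and 776 TPM, and Eef2 at 735 and 706 TPM. The lowest were Eif5a2 at 25.7 and 27.9 TPM and Eef1d at 109 and 116 TPM. Of these 8, 7 were at 100 TPM or more in both libraries.

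The 30 initiation factor genes had a median of 66.8 TPM, from Eif4a2 (461 and 439 TPM), Eif1 (282 and 318) and Eif4h (223 and 221) down to Eif3j1 (13.5 and 14.04) and Eif2s1 (12.7 and 11.9). The 20 ribosome assembly genes had a median of 27.1 TPM, from Npm1 (167 and 169), Nop56 (99.9 and 92.1) and Ncl (69.2 and 84.9) down to Tsr1 (11.4 and 10.2) and Polr1a (8.41 and 8.32). The 13 growth control genes had a median of 23.9 TPM, led by Rheb (74.9 and 71.6), Rps6kb2 (51.6 and 50.4) and Tsc2 (39.2 and 34.2), with Eif4ebp1 (1.95 and 1.90) and Myc (1.72 and 1.5) lowest. The 77 genes of the mitochondrial ribosome had a median of 46.0 TPM, from Mrps33 (185 and 194), Mrps21 (175 and 179.8) and Mrpl48 (121 and 129.5) down to Mrpl19 (9.67 and 10.2) and Mrpl1 (8.67 and 8.13). The median over canonical cytosolic genes, 335 TPM, was above the median of each of these lists except the 3 components with other symbols.

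Between the replicates the ribosomal protein genes differed little, and almost all in the same direction. Of the 81 with at least 100 counts over both libraries, none was as much as 0.32 apart on the log2 scale, the threshold used, in either direction, where 10.6% of all 15543 genes were. The share was 2.38% (29 of 1218) for other protein-coding genes of at least 100 TPM and 2.13% (8 of 376) for those of 400 to 1300 nucleotides, so a count of 0 among 81 is close to that of genes of like level. Their median log2 ratio of replicate 1 over replicate 2, after TMM scaling, was -0.11, and 74 of 81 were lower in replicate 1, where 50.4% of all genes were and the median was 0.00. The values ran from -0.29 for Rpl21 (178 and 219.5 TPM) to 0.06 for Rpl5 (53.7 and 48.1 TPM). The medians of small and large subunit genes were -0.12 and -0.11. By the ratio of TPM + 1, the median was -0.07 and 61 of the 81 (75.3%) were lower, where 32.9% of all genes were and their median was 0.06. The 376 other protein-coding genes of 400 to 1300 nucleotides and at least 100 TPM also centred below 0 after TMM scaling, with a median of -0.04 and 263 (69.9%) lower in replicate 1. Between the replicates of the mm9 table, by the ratio of RPKM + 1, 6 of 79 ribosomal protein genes (7.59%) were past 0.32 in either direction, where 4.24% of all 14623 genes and 8.04% of the genes of that length and level were. Rpl10l, Rpl39l and Rpl3l did not reach the count minimum.

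**Figure D5:**
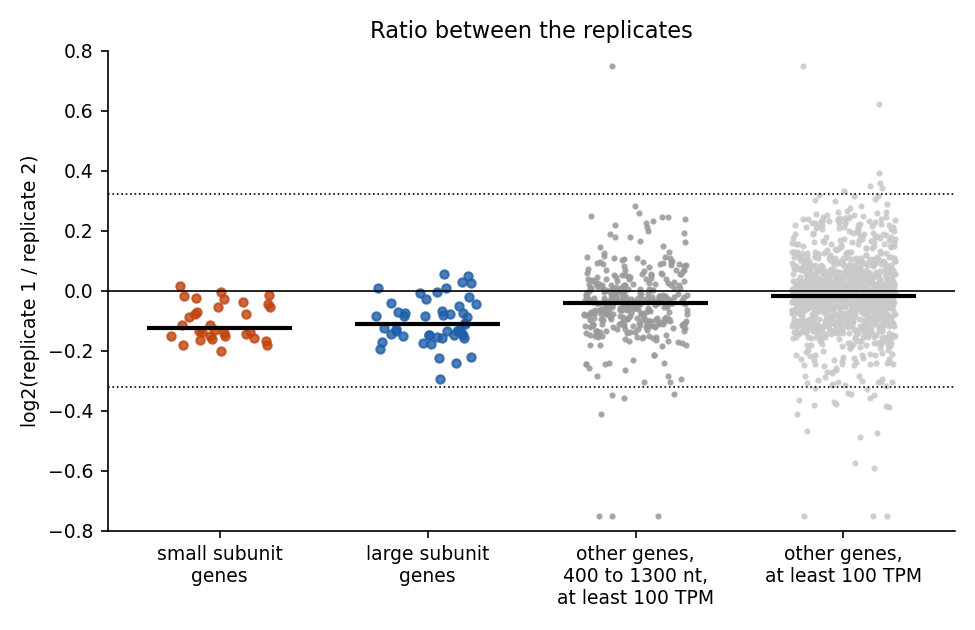
Log2 ratio of replicate 1 over replicate 2 for small and large subunit genes (81 in all), 366 other nuclear genes of 400 to 1300 nucleotides and at least 100 TPM, and all 1198 others of at least 100 TPM; thick lines are medians, dotted lines mark 0.32, and 4 values beyond 0.75 are drawn at 0.75. The ribosomal protein genes lie between -0.29 and 0.06, mostly below 0.

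Cell type markers also moved between these libraries. The 4 red cell globin genes summed to 744 TPM in replicate 1 and 1631 TPM in replicate 2, with a median log2 ratio of -1.23, and all 4 were lower in replicate 1. The 4 oligodendrocyte markers summed to 6078 and 7179 TPM (median ratio -0.32, all 4 lower). The 5 granule and 4 Purkinje markers were all higher in replicate 1, with median ratios of 0.24 and 0.20, and summed to 2477 and 2016 TPM and to 2386 and 1979 TPM. The 6 choroid plexus markers were all past the log2 threshold of 0.32 in the direction of replicate 1 and summed to 2130 and 784 TPM, of which Ttr gave 2086 and 763. The 4 markers of Bergmann glia and astrocytes had a median ratio of 0.11, and the 3 of ependyma 0.77. The part of cell composition, or of the sex difference above, in the shift of the ribosomal protein genes was not tested, and fewer cells of a type cannot be told apart from less RNA per cell.

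Lists of related genes had medians nearer to 0. The median log2 ratio was -0.07 for elongation factors (7 of 8 lower), -0.06 for the ribosomal components with other symbols (2 of 3), -0.02 for initiation factors (20 of 30), -0.03 for ribosome assembly genes (12 of 20), -0.04 for the mitochondrial ribosome (52 of 77) and 0.01 for growth control genes (6 of 13). One gene of these lists was past the threshold of 0.32: Eif2s3x, an X-linked initiation factor known in mouse to escape X inactivation, at 0.56.

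The 4 X-linked ribosomal protein genes lay among the autosomal ones, beside the difference in Xist. Rpl10 had 336 and 361 TPM, Rpl36a 291 and 309 TPM, Rps4x 287 and 311 TPM, and Rpl39 159 and 152 TPM. Their log2 ratios were -0.15, -0.15, -0.18 and 0.01, within the range of -0.29 to 0.06 over all 81 genes.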

How the data were processed

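The authors deposited expected counts (estimated fragments that need not be whole), TPM, FPKM and each transcript's percent of its gene, per the file headers on mm10 with GENCODE M4; the aligner is not given in the sources used here. Their TPM includes spike-ins. The deposited mm9 tables hold, per the file headers, RPKM of replicates numbered 1 and 2 beside a score (not used), and the deposited junction table read counts; these numbers name no library. Total expected counts were 83109117 and 84279927.

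Names came from GENCODE M21 (42462 of 43346 identifiers matched). Expected counts were rounded for edgeR 4.0.16 (R 4.3.3): log2 CPM after TMM scaling, prior count 2, at least 100 counts over both libraries; DESeq2 1.42.0 gave alternative size factors. The ratio step was tested on simulated data. The libraries differed by more than sampling noise (chi-square of 29.6 per gene). Processed pseudogenes were assigned to the parent of the best blastn 2.17.0 match. Whole counts were taken within 0.005. The members and lists were chosen with earlier results of these data known. Named genes were the 6 highest and lowest canonical genes, stalk genes and Rpsa, paralog pairs, the 6 with most rank movement between tables, most -ps pseudogene TPM or largest second transcripts, Rps24, X-linked genes, and 3 highest and 2 lowest of each list; others were named after their values were seen. The design paired Rps4l with Rps4x, but Rps4l is a pseudogene in GENCODE M21. A few of the genes are left unnamed and are counted all the same.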

Additional observations from a re-analysis of the deposited data

How the results depend on the processing

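No paired analysis was possible because the 2 libraries form 1 group. The median of canonical genes (335 TPM) was 218 as FPKM, 354 as TPM rescaled to mouse genes and, chosen after seeing the data, 360.3 with copies added; leaving out a replicate gave 322 to 346. The members' mean share of counts (1.07%) was 1.13% of nuclear genes, and 1.03 to 1.11% without a replicate. The coefficient of variation (66.3%) was 54.0% at effective lengths of at least 300 (64 genes, without Rplp1), 127% in mm9 RPKM and 60.1% with copies added. The 32.8-fold range was 14.8-fold with copies added and 31.6 to 34.2-fold without a replicate. The count past the fold threshold (0) was 2 with no count minimum (Rpl3l and Rpl39l) and, added after seeing the data, 6 of 79 by the ratio of mm9 RPKM + 1, and stayed 0 with DESeq2 factors, TPM, 1.5-fold, 2-fold and a prior of 0.5. The median log2 ratio kept its sign in the 4 alternatives on the mm10 libraries, from -0.12 (DESeq2 factors) to -0.07 (TPM + 1). The mm9 value was -0.11 as numbered there, but those numbers are not matched to the libraries, so its sign cannot be set beside the others. Genes with a second transcript (16) were 24 at 10%, 8 at 30%, and 17 to 18 in single libraries. Genes led by a transcript not annotated as coding (5) were 0 by counts and 3 to 5 in single libraries. Genes with a pyrimidine run (13) were 29 within 5 bases. By counts Rps27l held 58.9%, Rpl22l1 27.6% and Rpl7l1 18.5% of their pairs, in place of 21.3%, 46.1% and 7.43% by TPM; TPM corrects for length and counts do not. With 2 libraries, differences smaller than about those between replicates were not resolved, and whatever the shared reads add is outside the spreads between replicates.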
